A study of Caenorhabditis elegans with 2 samples.

Results

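The 162 *Caenorhabditis elegans* snoRNA genes that do not lie wholly inside a protein-coding gene on their own strand were examined for binding of SNPC-4. They were chosen by position alone: the WBcel235 annotation holds 346 genes of the snoRNA biotype, of which 2 with smy- names (smy-2 and smy-3) were set aside, and 182 of the remaining 344 lie wholly within a same-strand coding gene. Of the 162, 129 were intergenic with respect to coding genes and 33 were antisense, that is, wholly inside a coding gene on the other strand. Of the intergenic genes, 1 overlapped a same-strand coding gene in part. The annotation names 46926 genes in all.

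Binding was measured by chromatin immunoprecipitation followed by sequencing (ChIP-seq) in 2 biological replicates, which formed the only group. Both came from strain YL487, in which a stably expressed transgene carries SNPC-4 with a GFP-FLAG tag at its C terminus, and the promoter of that transgene is not named in the labels. Whole hermaphrodite young adults were collected 60 hours after synchronization as starved L1 larvae, so the signal is a sum over all tissues. The immunoprecipitation used an anti-GFP antibody per the description, although the labels' antibody field gives snpc-4. No wild-type or untagged group was analysed here, and the lists give regions rather than read counts, so sequencing depth is unknown. A p-value comparing groups of samples was therefore not possible, and the intervals given are exact binomial (Clopper-Pearson) at 95%, covering counting error over genes only.

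snoRNAs are short nuclear RNAs that guide chemical modification of ribosomal RNA. Those of the box C/D family, named for their short boxes C and D near the ends, direct 2′-O-methylation by fibrillarin, and those of the H/ACA family direct pseudouridylation by dyskerin. In many animals most snoRNAs are cut out of the introns of host genes and need no promoter of their own, whereas a snoRNA gene with no host has to be transcribed from its own promoter or with a neighbour. In worms SNPC-4 corresponds to SNAPC4, a DNA-contacting subunit of SNAPc, and SNAPc recognises the proximal sequence element upstream of small nuclear RNA (snRNA) genes. tRNA genes are built differently: TFIIIC binds the A box and the B box inside the transcribed region and recruits RNA polymerase III, which ends transcription at a run of T.

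SNPC-4 peaks lay at the start of 70 of the 162 genes (43.2%, interval 35.5 to 51.2). A peak here is a region past the authors' irreproducible discovery rate (IDR) threshold on the pooled replicates. These peaks were the 4675 pooled regions of highest signal. Passing is thus a cut on pooled signal and does not show that each region agreed between replicates. A peak counted when its summit lay within 300 bp of the annotated 5′ end. The same rule held for 11.6% of all 46926 annotated genes, for 6.36% of 19985 protein-coding genes and for 39 of the 182 snoRNA genes inside same-strand coding hosts (21.4%, interval 15.7 to 28.1). The intervals of the non-hosted and the hosted snoRNA genes did not overlap. That is a description, since genes are not replicates and several genes with a peak were close copies of each other. Intergenic genes had a peak in 56 of 129 cases (43.4%) and antisense genes in 14 of 33 (42.4%). Counting weaker candidate regions of the pooled replicates too, 94 of the 162 had a region at the 5′ end, against 38.7% of all annotated genes. Of these 94, 70 were past the threshold, against 29.9% of all genes with a candidate and 15.6% of the 30000 candidates themselves. The remaining 68 genes had no pooled region. All 70 summits were different positions in the genome.

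Among the genes at the strongest peaks, the sequence just upstream repeatedly held one arrangement, AACNCG followed after 5 bases by TGTC, mostly continued as TGTCGG. It is shown with 6 of the 15 genes of highest signal, since the sorting of genes that follows rests on these letters. Of these, 5 hold AACNCG with TGTC in that spacing and T26A8.6 holds TGTCGG without AACNCG. The sequences are the 80 bases before the gene in the RefSeq copy of WBcel235 (ce11), 5′ to 3′ on the strand of the gene, and capitals mark the letters searched where they occur. The coordinates are chrII:15025894-15025973, minus strand for Y53F4B.47; chrIV:14327122-14327201, minus strand for Y67A10A.14; and chrIV:867134-867213, minus strand for Y55F3BR.9. They are chrIV:8428740-8428819, minus strand for T26A8.6; chrV:8247962-8248041, minus strand for C16D9.10; and chrIII:9717300-9717379, plus strand for C07A9.14.
Y53F4B.47: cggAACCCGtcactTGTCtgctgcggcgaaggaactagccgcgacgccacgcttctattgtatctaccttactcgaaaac
Y67A10A.14: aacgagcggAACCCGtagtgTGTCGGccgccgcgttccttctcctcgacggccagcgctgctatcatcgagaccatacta
Y55F3BR.9: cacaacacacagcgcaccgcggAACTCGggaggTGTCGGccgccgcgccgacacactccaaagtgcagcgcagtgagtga
T26A8.6: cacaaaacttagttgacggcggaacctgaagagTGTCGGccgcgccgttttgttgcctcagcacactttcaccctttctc
C16D9.10: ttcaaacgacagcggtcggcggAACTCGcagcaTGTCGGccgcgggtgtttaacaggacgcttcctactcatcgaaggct
C07A9.14: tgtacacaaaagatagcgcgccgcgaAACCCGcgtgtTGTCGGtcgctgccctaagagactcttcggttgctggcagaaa

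A different arrangement, shared with the internal promoter of tRNA genes, stood upstream of a set of non-hosted snoRNA genes, most of them short, with weaker peaks. It is written here as TGGC, 5 or 6 bases and GG (A-box-like), followed after 20 to 60 bases by GTTCNA (B-box-like), searched on the sense strand from 120 bases before to 20 bases after the 5′ end. It is shown for 5 genes to set beside the first arrangement, with these letters in capitals and the same conventions. The coordinates are chrV:15873927-15874006, minus strand for T06C12.16; chrV:11314178-11314257, plus strand for T03F7.8; and chrIV:7574042-7574121, plus strand for F32E10.10. They are chrIV:11549865-11549944, minus strand for F12F6.11 and chrX:6867858-6867937, plus strand for C53B7.8.
T06C12.16: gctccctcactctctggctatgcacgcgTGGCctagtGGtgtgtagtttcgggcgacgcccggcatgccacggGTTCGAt
T03F7.8: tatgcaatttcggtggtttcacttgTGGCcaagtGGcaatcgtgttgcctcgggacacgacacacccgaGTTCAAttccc
F32E10.10: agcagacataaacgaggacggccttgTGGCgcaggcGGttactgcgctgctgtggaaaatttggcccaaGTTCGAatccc
F12F6.11: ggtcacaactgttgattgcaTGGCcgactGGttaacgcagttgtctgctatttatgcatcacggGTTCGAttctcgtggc
C53B7.8: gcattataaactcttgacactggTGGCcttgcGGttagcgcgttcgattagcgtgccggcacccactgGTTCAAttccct

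The 162 genes were sorted by these letters. A gene counted as carrying the snRNA-type element if the 100 bases upstream held TGTCGG on either strand, or AACNCG, 5 bases and TGTC on the sense strand, and as carrying tRNA-like boxes if it held the paired boxes instead. Both definitions were written after sequences and signals had been seen, so the counts of peaks under them are descriptions and support nothing. There were 28 genes with the snRNA-type element, 17 with tRNA-like boxes and 117 with neither. A peak was present at 24 of the 28, at 13 of the 17 and at 33 of the 117 (28.2%). Among hosted snoRNA genes the same counts were 12 of 13, 8 of 10 and 19 of 159 (11.9%). A hosted gene that held both arrangements was placed with the snRNA-type set.

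The share of genes with each set of letters is given beside that over all genes as a description, since the letters were chosen from upstream sequences of these genes and of others with strong peaks. TGTCGG stood within 100 bases upstream, on either strand, of 24 of the 162 genes (14.8%), of 10 hosted snoRNA genes (5.49%) and of 929 of all annotated genes (1.98%). Its reversed letters GGCTGT, which have the same composition, were found at 6 of the 162 and at 611 of all genes (1.30%). The composite AACNCG, 5 bases, TGTC was present at 23 of the 162 (14.2%), against 11 hosted snoRNA genes (6.04%) and 106 of all annotated genes. Of those 106, 34 were snoRNA genes (32.1%) and 30 were snRNA genes, the latter out of 129 snRNA genes (23.3%). Paired tRNA-like boxes were found at 17 of the 162 (10.5%), 11 hosted snoRNA genes (6.04%) and 59 of all annotated genes. Thus 28 of the 59 genes with that pairing near the 5′ end (47.5%) were snoRNA genes. Of 634 tRNA genes 1 matched; the window lies mostly upstream, whereas tRNA genes hold these boxes inside the gene.

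The 24 peaks at genes with the snRNA-type element had pooled signals of 1297 to 31541 with a median of 7353, and ranked 3 to 277 of the 4675 IDR peaks. Signal is the authors' measure of peak strength on a scale that the sources used here do not give, so levels are read within one list and ranks are used between lists. The 13 peaks at genes with tRNA-like boxes had signals of 248 to 633 with a median of 388, and ranked 538 to 1533. The signals of these sets did not overlap, which the choice of the letters on strong peaks helped to fix. In the replicate lists, whose pooled data gave the letters, the same 24 and 13 genes ranked 3 to 279 and 556 to 1536 in replicate 1, and 3 to 280 and 566 to 1758 in replicate 2. Genes outside the IDR list did not keep to these ranges: T09B9.10, with the snRNA-type element, ranked 669 in replicate 2, and K02F6.11, also with it, ranked 8282 in replicate 1. The 33 peaks at genes with neither set of letters spread across both ranges, with signals of 91.4 to 11060 and a median of 332. Among hosted snoRNA genes the snRNA-type set ran from 374 to 34251 (12 genes) and the tRNA-like set from 149 to 713 (8 genes), so those ranges did overlap.

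**Figure D1:**
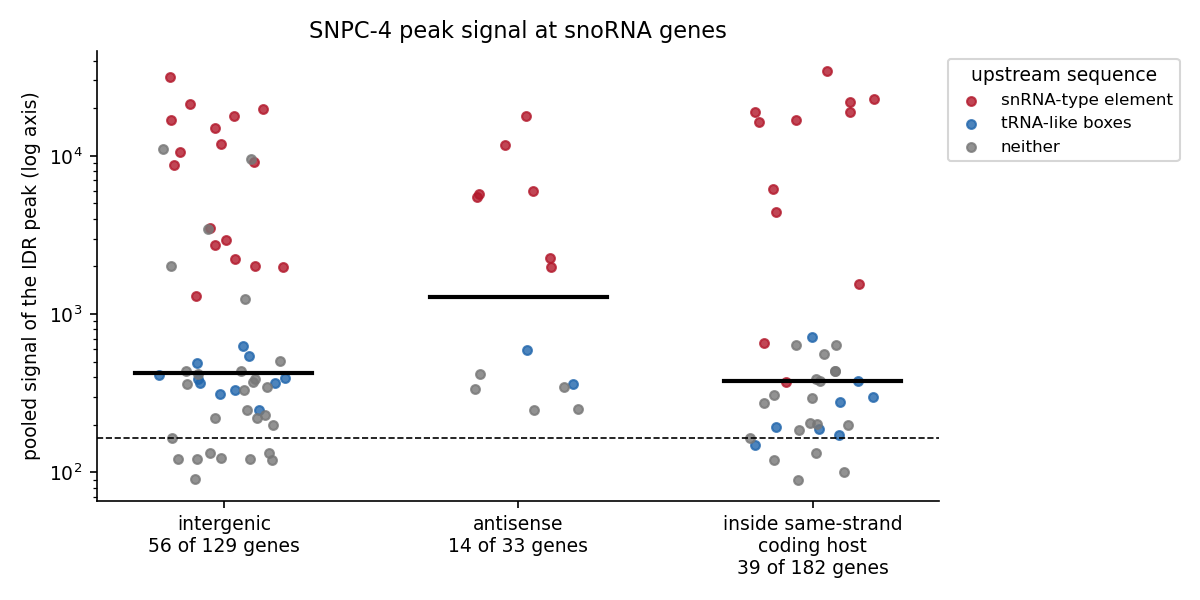
Pooled signal of the IDR peak (log axis, authors' units) at each snoRNA gene that had one, for intergenic and antisense genes and, at the right, genes inside same-strand coding hosts. Each point is 1 gene, coloured by the letters found upstream; solid bars are medians (428, 1283 and 379), and the dashed line is the median of the whole IDR list (165). Intergenic and antisense genes with the snRNA-type element lie at 1297 and above, where intergenic genes with neither set of letters also occur, such as K07C10.2 (11060) and M03D4.78 (9513).

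Over all 70 genes, the median signal was 436 (range 91.4 to 31541), against 379 at the 39 hosted genes and 165 over the whole IDR list. A signal above that list median was found for 62 of the 70 and for 34 of the 39. Peaks of 1000 or more numbered 29 at non-hosted snoRNA genes, 10 at hosted ones and 348 in the whole list. The largest step in the ordered signals of the 70 lay between F56A12.6 (1245, rank 288) and T06C12.16 (633, rank 538), a ratio of 1.97, with 29 genes above it and 41 below. Non-hosted snoRNA genes stood at 19 of the 100 highest peaks and at 10 of the next 200. They stood at 13 of the next 700, 19 of the next 1000 and 9 of the last 2675. Of the 19 at the top, 16 carried the snRNA-type element, and hosted snoRNA genes stood at another 9 of those 100 peaks, all 9 with it.

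Y53F4B.47, an intergenic gene of 80 bases on chromosome II (15025814 to 15025893), had the strongest of these peaks. Its signal was 15002 in replicate 1 and 16640 in replicate 2, and it ranked 3 of 30000 regions in each replicate list and in the pooled list. Its summit lay at -76 bp from the 5′ end, where negative values are upstream. The element AACCCG, 5 bases, TGTC stood there without the final GG that most of the others had.

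F59C6.15 (chromosome I, 10516978 to 10517150) followed at pooled rank 11. It had a signal of 10775 (rank 7) in replicate 1 and 10605 (rank 12) in replicate 2. F47G4.9, also on chromosome I (14058839 to 14058910), had 9198 (rank 14) and 10773 (rank 11) in replicates 1 and 2. Y67A10A.14 on chromosome IV (14326948 to 14327121) had 9130 (rank 15) and 9020 (rank 17). These 3 genes kept nearly the same place in both lists, and the summit lay upstream of each, at -71, -42 and -52 bp in the pooled list.

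Y55F3BR.9 was the strongest antisense gene. It lies inside Y55F3BR.2 on the opposite strand (chromosome IV, 867056 to 867133), and its signals of 8608 in replicate 1 and 9234 in replicate 2 both ranked 16. T26A8.6 (chromosome IV, 8428614 to 8428739) had 8041 (rank 19) and 8984 (rank 18), and Y74C9A.6 (chromosome I, 3747 to 3909) had 7521 (rank 21) and 7627 (rank 24). C16D9.10 (chromosome V, 8247888 to 8247961) had 5726 (rank 28) and 6203 (rank 30). A tRNA, snRNA, SL RNA or SmY 5′ end lay within 500 bp of C16D9.10, the only one of these 4 genes for which that was so, and whether it contributed to the signal was not tested.

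Other antisense genes also had strong peaks. C07A9.14, inside the gene ncx-7 on chromosome III, had a signal of 5511 (rank 31) in replicate 1 and 6233 (rank 29) in replicate 2. C05H8.3, inside ckk-1, had 3055 (rank 51) and 2981 (rank 55), and K02C4.7, inside ltd-1, had 2774 (rank 61) and 2699 (rank 62). The coding genes that held C07A9.14 and K02C4.7 started 2947 and 1083 bp from the summits, so these summits were not at the coding 5′ ends. WBGene00220205 (a WormBase gene identifier), inside pkd-2, ranked 56 and 58 in the replicates with its summit at 29 bp inside the gene. The piRNA gene 21ur-1009 starts 28 bp from that summit, 1 bp closer than the snoRNA gene.

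The rest of the 15 highest pooled signals belonged to K07C10.2 (rank 34), F25H2.15 (35), M03D4.78 (38), T08B6.64 (41) and C18A3.12 (43). F25H2.15 had 5193 and 5503 in replicates 1 and 2 and ranked 35 in both. T08B6.64 had 4589 (rank 39) and 4654 (rank 41), and C18A3.12, a gene of 65 bases, had 4124 (rank 42) and 4614 (rank 43). K07C10.2 and M03D4.78 carried neither set of letters. The summit at K07C10.2 was 116 bp downstream of its 5′ end and 29 bp from the non-coding RNA gene K07C10.6, so its assignment to the snoRNA gene is uncertain.

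M03D4.78 had 4801 (rank 38) in replicate 1 and 4764 (rank 40) in replicate 2, with its summit at -59 bp in both, and no annotated 5′ end nearer than that of zen-4 at 280 bp. Its upstream sequence is shown because it is the strongest peak with its own 5′ end nearest and no match to the letters searched; it holds a TGTC that lacks both AACNCG and the following GG, and no capitals are used. It lies at chrIV:6117877-6117956, minus strand.
M03D4.78: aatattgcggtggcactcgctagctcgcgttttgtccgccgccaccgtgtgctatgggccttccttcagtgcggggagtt
The upstream sequence of C17H12.36, which ranked 170 with no match either, was 74.3% identical to it in a global alignment of the 100 bases upstream. No match says only that these letters were not in this window.

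**Figure D2:**
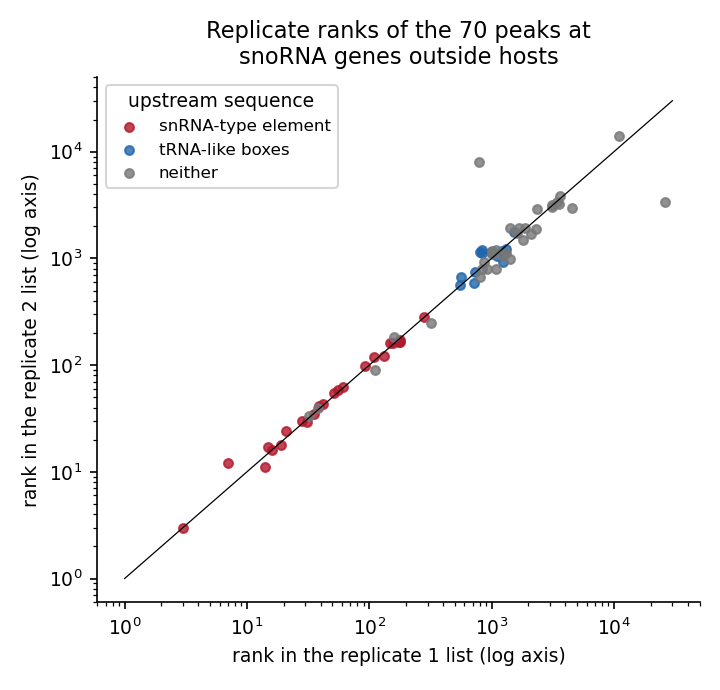
Rank of the nearest summit in replicate 1 (horizontal, log axis) against its rank in replicate 2 (vertical, log axis) for the 70 snoRNA genes outside same-strand hosts with an IDR peak; each point is 1 gene coloured by the letters found upstream, low numbers are strong peaks and the line marks equal ranks. Most points lie along the line. Departures include C46C2.8 (ranks 789 and 8035, summits at -15 and -183 bp) and K04D7.17 (26200 and 3401, summits at 90 and -61 bp).

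All 70 genes with an IDR peak had a candidate summit within 300 bp of the 5′ end in both replicate lists, though not always at the same position. Of these, 67 (95.7%) were among the 4675 strongest regions of each replicate, against 35 of the 39 hosted genes (89.7%). Spearman's rho between the replicate ranks was 0.96 over the 70 genes, given as a description since the genes share the same libraries. The IDR list held the pooled regions of highest signal: its lowest was 87.28, and the highest outside it was 87.27. Pooled signal draws on both replicates, so both values were not independent of how the 70 genes were chosen. The 2 replicate summits lay a median of 10.5 bp apart, and 52 of 70 pairs lay within 20 bp. The 3 widest differences in rank were at K04D7.17, T23G11.12 and F20D12.10, of which the first had an IDR peak. K04D7.17 ranked 26200 and 3401 by its nearest summits but 4000 and 3401 by the strongest within 300 bp, and T23G11.12 ranked 26376 and 5021 by the nearest but 5745 and 5021 by the strongest. C46C2.8 was different, with a signal of 236 (rank 789) at -15 bp in replicate 1. In replicate 2 its nearest summit, also the strongest within 300 bp, lay at -183 bp with 30.3 (rank 8035). These were different positions, and replicate 2 listed no summit closer to its 5′ end.

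At the lower edge, C34E11.20 had the weakest IDR peak, with a pooled signal of 91.4 (rank 4457) at -245 bp. In the replicates its nearest summits, at -124 and -46 bp, ranked 10897 and 13951, and the strongest within 300 bp in replicate 2 lay at -245 bp with a signal of 68.2 (rank 3137). T21B4.20 had 120 (rank 3327) and K04D7.17 had 121 (rank 3292). Just outside the threshold were T23G11.12 (87.2, pooled rank 4678), F37A8.7 (86.7, rank 4710) and F20D12.10 (67.3, rank 6152). The lowest signal in the IDR list was 87.3, so T23G11.12 and F37A8.7 missed it by under 1 unit. Among the 92 genes with no IDR peak, 29 had a candidate in replicate 1, 28 in replicate 2 and 20 in both. In those 20 the nearest summits of the replicates lay a median of 133.5 bp apart. Over all annotated genes, those with a peak included, 38.7% had a pooled candidate. The share in each replicate list was not counted over all genes, so these counts are not read as binding.

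**Figure D3:**
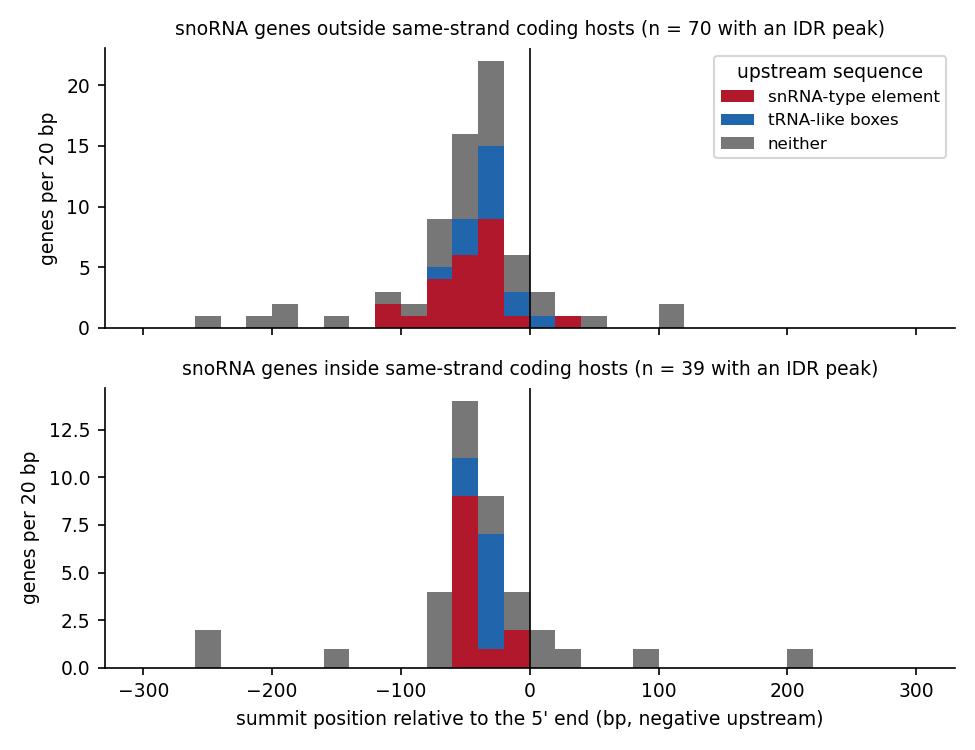
Distance of the IDR summit from the 5′ end (bp, negative upstream) for snoRNA genes outside same-strand hosts and inside them, as counts of genes per 20 bp, stacked by the letters found upstream. Most summits of the 70 genes outside hosts lie within 100 bp upstream, with a median of -41, and the 39 inside hosts centre at -44.

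Summits lay upstream of the gene in 63 of 70 cases (90.0%, interval 80.5 to 95.9), at a median of -41 bp, and 56 of 70 lay no more than 100 bp upstream. Hosted snoRNA genes gave 34 of 39 upstream (87.2%) and a median of -44 bp, so the position did not separate the classes. By letters, the median was -45 bp for the snRNA-type set, -28 bp for the tRNA-like set and -52 bp for genes with neither. The letters stood at similar distances from the 5′ end. In the 21 genes with TGTCGG and a peak, its first base lay at -62 to -43 with a median of -49, and 14 of them lay between -50 and -46. The pooled summit lay a median of 6 bp downstream of it, though single genes ranged from -70 to 77 bp.

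In the 13 genes with tRNA-like boxes and a peak, the A-box-like letters began at -72 to -50 (median -57) and the B-box-like letters at -27 to -5 (median -12). The boxes thus stood before the annotated snoRNA or at its edge. Their summits lay between -76 and 0, most of them between the starts of the boxes. For T06C12.16, the strongest of the set, the summit was at -28 bp, with signals of 327 (rank 556) in replicate 1 and 309 (rank 566) in replicate 2. T03F7.8, antisense to cutl-18, had 326 (rank 558) and 273 (rank 665), and F32E10.10 had 256 (rank 716) and 298 (rank 594). F12F6.11 had 234 (rank 803) and 169 (rank 1159), while C53B7.8 had 227 (rank 830) and 173 (rank 1121). K09E9.5, the weakest, had 138 (rank 1536) and 113 (rank 1758). T03F7.8 ranked above F32E10.10 in replicate 1 and below it in replicate 2, so the order within this set is not resolved. T06C12.16, T03F7.8, F32E10.10, F12F6.11, C53B7.8 and K09E9.5 were chosen after their values were seen.

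**Figure D4:**
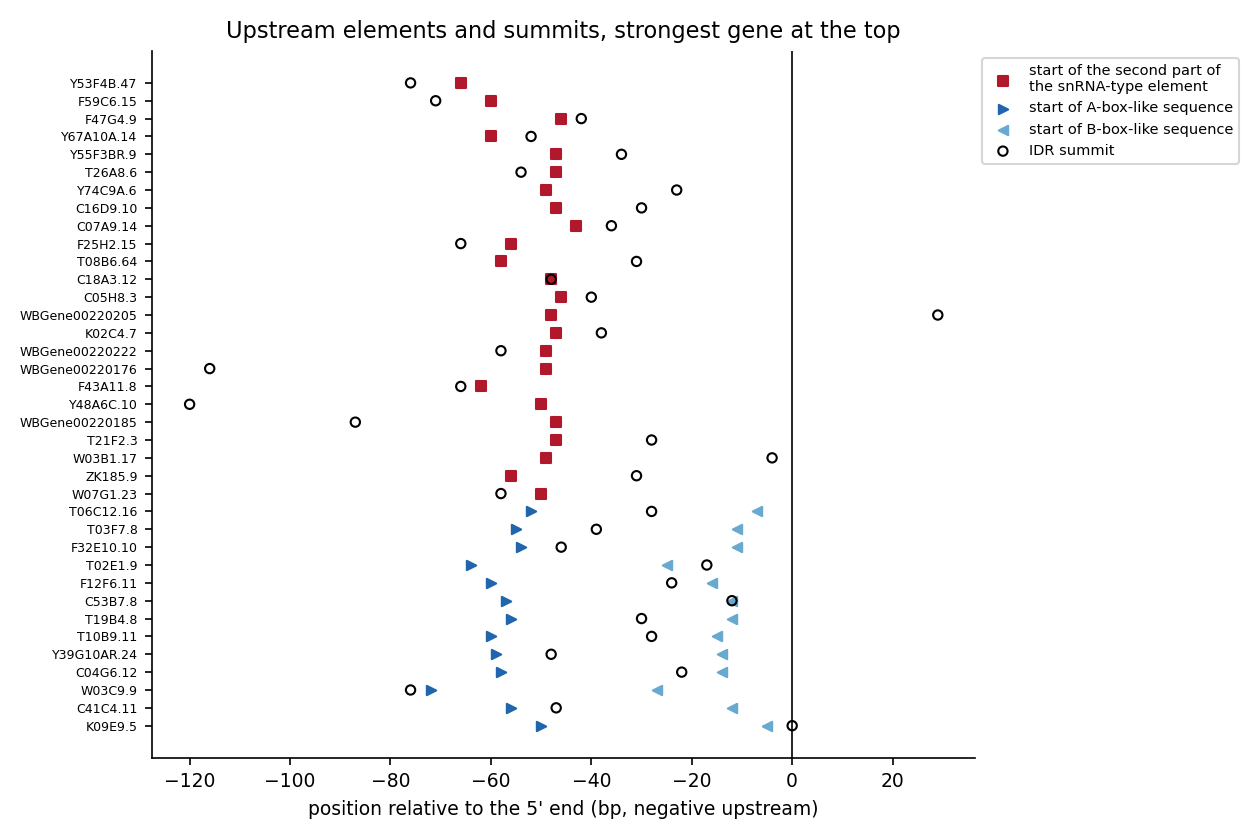
Position of the letters and of the pooled IDR summit relative to the 5′ end (bp, negative upstream) for the non-hosted snoRNA genes with a peak and the snRNA-type element (24) or tRNA-like boxes (13), strongest signal at the top. Squares mark the start of TGTCGG, or of TGTC where the composite element lacks GG, triangles mark the starts of the A-box-like and B-box-like letters, and open circles mark summits. The squares form a narrow column near -49, and most circles of the lower set lie between its triangles.

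Downstream, a run of TTTT, the kind of signal at which RNA polymerase III stops, was searched in the 30 bases after the annotated 3′ end. It was found at 12 of 13 genes with tRNA-like boxes and a peak, 17 of 24 with the snRNA-type element and a peak, and 15 of 33 with a peak and neither. Together that was 44 of the 70 genes with a peak (62.9%), against 33 of the 92 without (35.9%). Over all annotated genes the share was 46.2%, and over tRNA genes it was 97.3%. Hosted snoRNA genes with a peak had it in 34 of 39 cases (87.2%), and those without a peak in 72 of 143 (50.3%). A TATA within 50 bases upstream was less frequent, at 10 of 70 genes with a peak (14.3%) and 19 of 92 without (20.7%), against 24.7% of all genes.

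Nearly all short genes of the non-hosted set had a peak. Of 30 genes of 80 bases or less, 28 had a peak (93.3%, interval 77.9 to 99.2), against 12 of 24 hosted genes of that length (50%, 29.1 to 70.9). At 81 to 140 bases the counts were 20 of 60 (33.3%) and 21 of 106 (19.8%), and above 140 bases 22 of 72 (30.6%) and 6 of 52 (11.5%). The length bins were set after values had been seen. Over all annotated genes of any length the share was 11.6%. It was not counted by length, so whether short genes of other kinds differ was not tested. The 28 short genes with a peak were made up of 7 with the snRNA-type element, 12 with tRNA-like boxes and 9 with neither. The 2 short genes with no peak were C27H5.10, a gene of 74 bases antisense to pdl-1, and F54E4.17 on chromosome X, also of 74 bases, and neither carried either set of letters. C27H5.9, a gene of 69 bases that lies antisense in the same coding gene as C27H5.10, did have a peak (signal 416, rank 865).

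**Figure D5:**
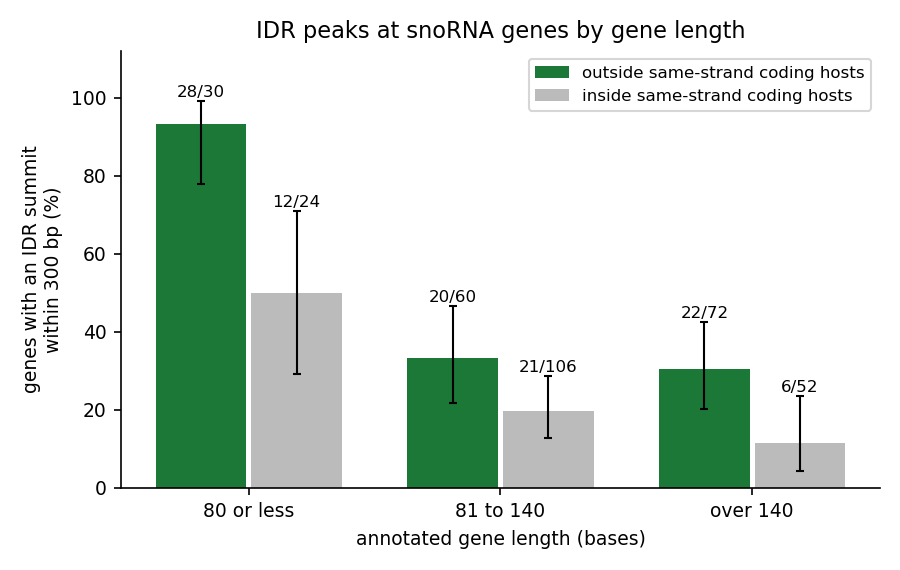
Share of snoRNA genes with an IDR summit within 300 bp of the 5′ end (percent, axis from 0) by length of the annotated gene, for genes outside same-strand hosts and inside them. Bars are shares and lines are exact 95% binomial intervals. Outside hosts the share is 93.3% at 80 bases or less and 30.6% above 140 bases. The share over all annotated genes was not counted by length.

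The letters of boxes C and D were used to see what kind of snoRNA these genes are. CTGA, box D, stood within the last 15 bases of 30 of the 70 genes with a peak (42.9%) and of 8 of the 92 without (8.70%). Among hosted snoRNA genes it stood in 14 of 39 with a peak (35.9%) and 24 of 143 without (16.8%), and over all annotated genes in 4.54%. It was present in 10 of the 13 with tRNA-like boxes and a peak, and in 13 of the 24 with the snRNA-type element and a peak. TGATGA, box C, within the first 15 bases was rarer: both boxes were found in 6 genes with a peak and 1 without, against 20 of all 46926 genes. ACA placed 3 bases before the 3′ end, the box of the H/ACA family, was found in 13 of the 162 genes (8.02%) and 45 of the 182 hosted genes (24.7%), against 1.85% of all annotated genes. A missing match says only that these letters were not in these windows. The genes Y55F3BR.9 (chrIV:867056-867133, minus strand) and C16D9.10 (chrV:8247888-8247961, minus strand) are printed whole as examples with a strong peak and both boxes, with box C and box D in capitals.
Y55F3BR.9: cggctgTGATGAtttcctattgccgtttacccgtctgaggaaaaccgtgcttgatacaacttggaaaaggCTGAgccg
C16D9.10: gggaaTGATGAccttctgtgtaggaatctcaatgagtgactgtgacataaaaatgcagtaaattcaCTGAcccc

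Several genes with strong peaks were close copies of each other. In a global alignment of the 100 bases upstream and up to 150 bases of the gene, WBGene00220222 and WBGene00220176 were 92.0% identical, F25H2.15 and Y67A10A.14 90.2%, F25H2.15 and F59C6.15 87.7%, and F59C6.15 and Y67A10A.14 87.1%. The sources used here do not give how reads that match several copies were treated, so the signals of these copies are uncertain. Their ranks differed: F59C6.15 ranked 11, Y67A10A.14 ranked 15 and F25H2.15 ranked 35 in the pooled list. WBGene00220222, WBGene00220176, Y48A6C.10 and W07G1.23 ranked 95, 115, 153 and 277. The 4 upstream sequences are shown because the element is nearly the same in all of them while their ranks differ, with capitals as above. They lie at chrIV:15649361-15649440, minus strand; chrIV:16592944-16593023, minus strand; chrIII:11118281-11118360, plus strand; and chrII:13946866-13946945, plus strand.
WBGene00220222: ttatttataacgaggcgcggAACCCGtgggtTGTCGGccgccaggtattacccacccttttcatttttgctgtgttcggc
WBGene00220176: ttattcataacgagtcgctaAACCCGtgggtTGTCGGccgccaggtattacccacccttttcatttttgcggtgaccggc
Y48A6C.10: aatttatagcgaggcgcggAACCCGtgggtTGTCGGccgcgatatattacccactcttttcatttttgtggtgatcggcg
W07G1.23: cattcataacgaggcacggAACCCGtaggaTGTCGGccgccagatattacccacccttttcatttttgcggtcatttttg
Their signals in replicates 1 and 2 were 1871 and 1711 at WBGene00220222, 1570 and 1417 at WBGene00220176, 1227 and 1046 at Y48A6C.10, and 669 and 639 at W07G1.23. The order of these 4 genes was the same in both replicates.

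A peak was not found at 4 genes with the snRNA-type letters. K02F6.11 held the composite element at -58 bp, within the range of -77 to -54 bp of the genes with a peak, yet had no pooled candidate, and its only region was at rank 8282 of replicate 1. Its sequence is shown as the exception to the pattern (chrII:2556799-2556878, minus strand, capitals as above).
K02F6.11: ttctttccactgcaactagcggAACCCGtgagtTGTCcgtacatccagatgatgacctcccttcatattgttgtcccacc
In F55A3.8 and K07E1.2, TGTCGG began at -78 and -88 bp, outside the range of the genes with a peak, and neither had a region in any list. T09B9.10 carried TGTCGG on the opposite strand, and a region was listed at its 5′ end in replicate 2 (signal 270, rank 669) but not in replicate 1 or the pooled list. Of the 4 genes with tRNA-like boxes and no peak, H04D03.5 had regions at ranks 8686 and 7929 of the replicates, while Y59E1B.14, Y6B3B.15 and ZK643.9 had none. These 4 genes were 113 to 134 bases long, against a median of 72 bases for the 13 with a peak. Short length was not shared by the hosted genes with tRNA-like boxes, where the 8 with a peak had a median of 125.5 bases.

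Among the 117 genes with neither set of letters, 5 had peaks of rank 300 or better: K07C10.2 and M03D4.78, described above, and M163.14, C17H12.36 and F56A12.6. M163.14, a gene of 64 bases on chromosome X, had a signal of 1559 (rank 111) in replicate 1 and 1908 (rank 90) in replicate 2. F56A12.6 had 563 (rank 322) and 700 (rank 250) with its summit at -215 bp, and that summit lay 126 bp from the snRNA gene F56A12.5. A tRNA, snRNA, SL RNA or SmY 5′ end within 500 bp was found for 3 of the 162 genes, C16D9.10, M163.14 and F56A12.6. Without them the share with a peak was 42.1% of 159. For 7 of the 70 summits the 5′ end of another gene was nearer, a non-coding RNA gene in 5 cases, a piRNA gene in 1 and an snRNA gene in 1.

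Across chromosomes the share with a peak ran from 26.1% on X (6 of 23, interval 10.2 to 48.4) to 61.3% on IV (19 of 31, 42.2 to 78.2). In between were I with 13 of 38 (34.2%), III with 6 of 16 (37.5%), II with 17 of 36 (47.2%) and V with 9 of 18 (50%). The intervals of X and IV overlapped. The share over all annotated genes was not counted by chromosome, so whether these shares differ from the local background was not tested. Genes with the snRNA-type element were spread over all 6 chromosomes, with 10 of the 28 on IV, all 10 with a peak, and 2 on X, 1 with a peak. With the X left out, 64 of 139 autosomal genes had a peak (46.0%).

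The strongest hosted snoRNA genes were set beside these for comparison. ZK994.7, inside pxn-1, ranked 1 in both replicates, with signals of 16152 in replicate 1 and 18218 in replicate 2. Y37E3.20, inside pcyt-2.1, ranked 5 and 9, and F01D5.12, inside F01D5.10, ranked 11 and 7. Hosted genes thus reached signals as high as those of Y53F4B.47 and F59C6.15. ZK994.7 carried the same element further from the gene, with TGTCGG at -69 bp and its summit at -35 bp, and its sequence is shown for that reason (chrV:8500499-8500578, plus strand, capitals as above).
ZK994.7: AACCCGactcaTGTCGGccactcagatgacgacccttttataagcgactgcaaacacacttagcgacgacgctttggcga

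The genes for the proteins that bind snoRNAs are transcribed as ordinary coding genes, and 3 of 8 had a peak within 300 bp of a 5′ end. fib-1, which encodes fibrillarin, the methyltransferase of box C/D particles, had a pooled signal of 388 (rank 956) at -97 bp, and ranked 1120 and 836 in the replicates. nol-56, a core protein of the same particles, had 166 (rank 2326) at -261 bp. dkc-1, which encodes the pseudouridine synthase dyskerin, had 171 (rank 2247) at -258 bp, but another gene, K01G5.11, starts 1 bp from that summit. The other 5 had no IDR peak: nola-3 (pooled rank 9153) and garr-1 (29864) had a weaker pooled candidate, and nol-58, snu-13 and Y48A6B.3 had none. In single replicates, nol-58 ranked 3628 and snu-13 ranked 4908 in replicate 2, and Y48A6B.3 ranked 26436 in replicate 1. Against the 6.36% of protein-coding genes with a peak, a list of 8 is too short to read further.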

How the data were processed

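SNPC-4 ChIP-seq was available for 2 biological replicates of 1 group. The authors deposited narrowPeak lists without headers: 1 of 30000 candidate regions per replicate, 1 of 30000 for the replicates pooled, and 1 of the 4675 pooled peaks that passed IDR. A deposited listing traces them to alignments of both replicates and a control. The sources used here name neither the aligner nor the peak caller. The deposited signal value is the authors' measure of peak strength, on a scale not given. The deposited −log10 q-value was not used for ranking. Only ce11 lists were used.

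The summit is the region start plus the deposited offset, counted from 1. Each gene took the summit nearest to its 5′ end within 300 bp in the IDR list, otherwise in the pooled candidates. Genes came from Ensembl release 115 of WBcel235, the assembly of ce11, and sequences from RefSeq, whose symbols matched all 162 genes. The last listed region on chromosome V ended at 20924180, the length of that chromosome in the reference. Sequence features were exact letter matches, and alignments were global.

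The members, the lists and TGTCGG were chosen with earlier results of these data known, and the composite element, the paired boxes, the sequence groups and the length bins were written after values and sequences had been seen. The genes named were the 15 non-hosted and the 5 antisense genes of highest signal, the 3 lowest in and the 3 highest outside the IDR list, the 3 highest hosted genes, the 3 whose replicate ranks differed most, up to 3 with another 5′ end nearer, and 8 snoRNP protein genes. Genes named as exceptions, copies, short genes or examples of a sequence group were chosen after their values were seen.

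No test was made, since 1 group was sampled and genes are not replicates. Assignment of summits was tested on simulated data. The alternatives tried were a window of 150 or 500 bp, the upper 50% of IDR peaks by signal, each replicate alone, the strongest summit, no other 5′ end nearer, the 5′ end inside a region, other host definitions, and other lengths for TGTCGG. Leaving out genes near other small RNA genes was added after the data were examined. Python 3.11.15, numpy 2.4.6, pandas 2.3.3, scipy 1.17.1, Biopython 1.88 and matplotlib 3.10.9 were used.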

Additional observations from a re-analysis of the deposited data

How the results depend on the processing

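The alternatives tried moved no summary value by more than its interval or its spread over genes. The share of non-hosted snoRNA genes with a peak ran from 38.3% (the 50% of IDR peaks with the higher signal) to 44.4% (a window of 500 bp), and that of hosted genes from 17.6% (no other 5′ end nearer) to 27.5% (a window of 500 bp). Leaving out each replicate gave 43.2% and 44.4% for the non-hosted genes and 21.4% for the hosted genes both times. These shares rest on the strongest regions of the remaining replicate's own list, since the IDR list needs both replicates. The median signal ran from 428 to 571, the median summit position from -41 to -38 bp, the share of summits upstream from 85.7% to 92.1%, and the share of genes with TGTCGG from 13.0% (60 bases) to 19.8% (200 bases). With the strongest summit in place of the nearest, 68 of 70 genes were among the strongest regions of both replicates. No paired analysis was possible because the 2 replicates form 1 group. Peak lists hold no read counts, so what depth limits cannot be shown, and a gene with no region listed may still be bound below the 30000 regions kept.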

Other observations

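At 3 non-hosted snoRNA genes a region among the 4675 strongest of one replicate had no pooled candidate within 300 bp. They were T09B9.10 (replicate 2, signal 270, rank 669, summit at -32 bp), W01C9.6 (replicate 1, signal 146, rank 1424, -55 bp) and T04A8.17, antisense to ppat-1 (replicate 1, signal 103, rank 2089, -5 bp). Of the 4675 strongest regions of a replicate, 238 in replicate 1 (5.09%) and 126 in replicate 2 (2.70%) had no pooled summit within 300 bp.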
